A study of Drosophila melanogaster with 32 samples.

Results

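The glutathione S-transferase genes of Drosophila melanogaster were followed through RNA of larval brains and through RNA bound to tagged ribosomes from the same kind of brain. The members are every gene whose deposited symbol begins with Gst, which gave 21 of the 14161 genes in the table. They fall into 10 GstD genes (the delta class), 10 GstE genes (the epsilon class) and 1 sigma class gene, GstS1. The members were chosen by their symbols and by no value of their own, but the family itself was selected on earlier results of these data, with differences between genotypes and between fractions in view. Its counts of changed genes therefore describe these libraries and are not independent evidence.

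All animals were larvae of instar 3 that carried ipcGal4 and UASRpl10Ab::GFP, so that the driver ipcGal4 expressed a GFP-tagged ribosomal protein. The series names T4 and T5 neurons, which sense visual motion in the optic lobe, as the source of the tagged ribosomes. The wild type was compared with animals of the ato1 genotype, a loss of function of ato, which encodes the proneural transcription factor Atonal. From each homogenate of 500 brains, 10% was sequenced as whole-brain input, and the remainder was immunoprecipitated with an antibody to GFP (the IP). Each genotype thus has an input group and an IP group, which makes 4 groups of 2 libraries. The labels do not say whether replicates came from separate crosses, so p-values measure only the spread between these libraries.

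Glutathione S-transferases join the tripeptide glutathione to electrophilic compounds, which makes insecticides, plant toxins and products of lipid peroxidation easier to excrete. The delta and epsilon classes are expanded in insects and lie in tandem gene clusters, whereas sigma class enzymes are shared more widely among animals. In Drosophila the factor CncC, the fly counterpart of Nrf2, drives GstD1 and other members under oxidative stress, and a GstD1 reporter is a common readout of that response.

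Libraries held 7780123 to 12238648 counts, and levels are given as CPM, counts scaled to a common library size. A floor of 3 counts in 1 library lay between 0.245 and 0.405 CPM. The neuronal gene elav and the glial gene repo were detected in every library. The targeted gene ato stood at 12.9 and 12.8 CPM in the wild-type inputs, 15.6 and 15.0 in the ato inputs, 12.7 and 17.1 in the wild-type IPs and 13.2 and 11.0 in the ato IPs, and it was not called in any comparison. Its RNA level therefore does not separate the genotypes and gives no check of the labels.

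The delta cluster spans positions 8190496 to 8206537 of chromosome arm 3R in the dm3 build, in the order GstD10, GstD9, GstD1, GstD2, GstD3, GstD4, GstD5, GstD6, GstD7 and GstD8. The first 3 of these are on the minus strand and have 2 exon blocks each, and the others are on the plus strand with 1 block each. The epsilon cluster spans positions 14284143 to 14297340 of arm 2R and starts with GstE10 on the minus strand, followed by GstE1 to GstE9 in numerical order on the plus strand. Each GstE gene is a single exon block. GstS1 stands alone at positions 12980758 to 12984935 of arm 2R, on the minus strand, with 6 exon blocks. GstD1 and GstD9 share 18 exon bases, and GstE9 shares 45 exon bases with imd, a gene of innate immune signalling. GstD1 and GstD9 lie on the same strand, so a strand option could not tell reads of their shared bases apart. Reads from shared bases, and reads that fit several close paralogs, may be left out of the counts or misassigned, which was not tested.

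The family was dominated by GstD1. This enzyme can act on the insecticide DDT, and its RNA stood at 1461 and 1200.1 CPM in the wild-type inputs and at 1462 and 1127 CPM in the ato inputs. GstS1, which acts on products of lipid peroxidation, followed with 305 and 286 CPM in the wild-type inputs and 314 and 257 CPM in the ato inputs. Levels of both overlapped between the genotypes in whole-brain RNA.

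Per kilobase of exon, which allows genes of different length to be compared, the order in the wild-type inputs was GstD1 at a mean of 1098 CPM per kilobase, GstS1 at 151, GstD3 at 43.1, GstE1 at 29.4, GstE2 at 23.4 and GstD9 at 14.8. The remaining members lay at or below 5.69 CPM per kilobase there, the value of GstE8. In the ato inputs GstE1, at 100.5 CPM per kilobase, stood next after GstS1, at 146, and GstE2 (55.6), GstD3 (55.4), GstD9 (47.6) and GstD5 (41.5) followed. GstD5 had stood at 0.914 CPM per kilobase in the wild-type inputs.

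Most other members were scarce. GstD8 was at 0 in 7 of the 8 libraries and GstE10 in 6, and neither they nor GstD7 and GstE4 passed the filter on low counts. The tests below therefore cover 17 members, 8 of the delta class, 8 of the epsilon class and GstS1. The 4 members that were not tested reached at most 0.992 CPM in any library. Of the tested members, GstD10 lay between 0.195 and 2.11 CPM, GstE9 between 0.124 and 3.02, GstE3 between 1.37 and 3.55, and GstE5 between 0 and 2.62. None of these 4 was called in any comparison.

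**Figure D1:**
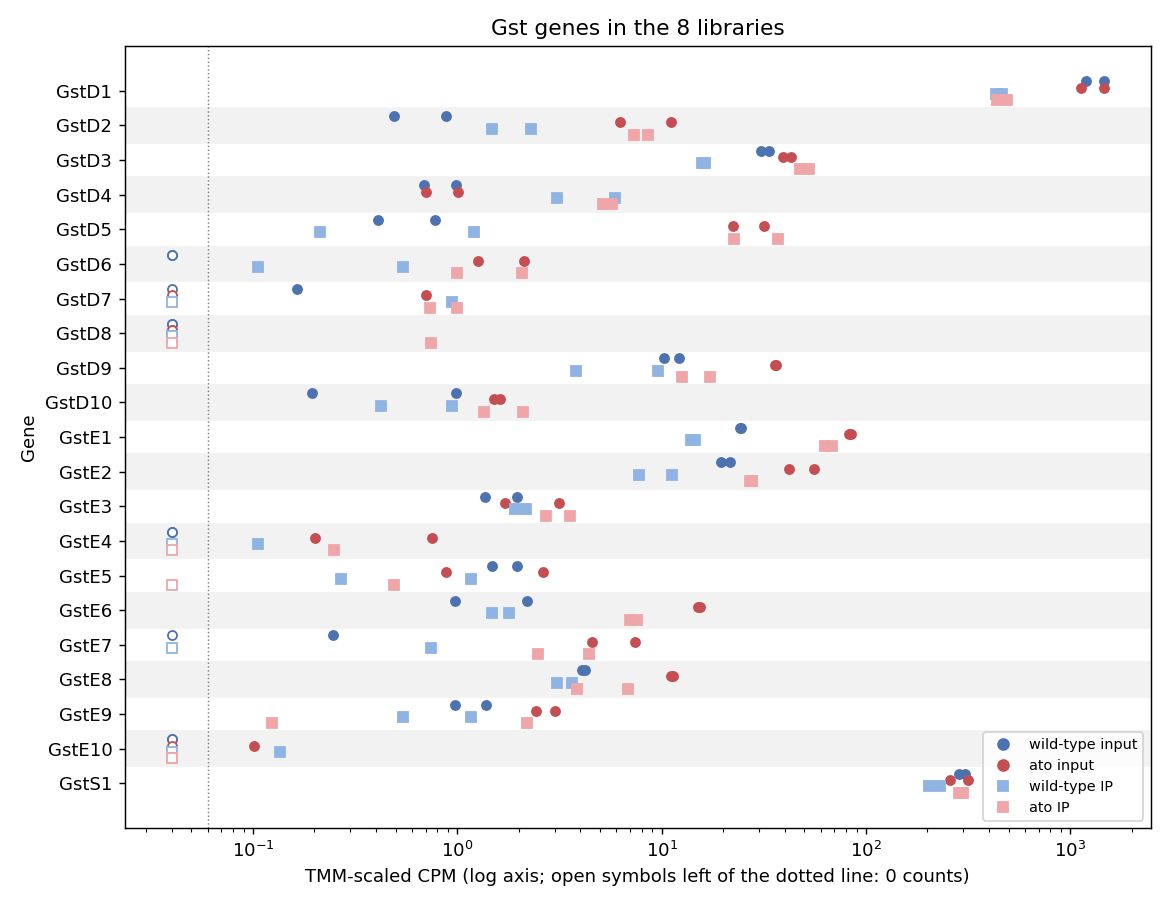
Levels of the Gst genes in each library, in CPM on a log scale, with 1 point per library, colours and shapes for the 4 groups, and open symbols at the left for 0 counts; GstD1 and GstS1 stand above the rest in every group, and GstD5, GstE1 and GstE6 are higher in both ato groups than in both wild-type groups.

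Whole-brain RNA of ato larvae held more RNA of 8 of the 17 tested Gst genes, and 0 were lower. Over all 10224 genes tested, 4.64% were called higher and 2.34% lower in this comparison. The 8 were GstD2, GstD5, GstD6 and GstD9 of the delta class and GstE1, GstE2, GstE6 and GstE7 of the epsilon class. GstD5, GstD6 and GstE7 had at most 9 counts in any wild-type library. The low-count filter thus kept them for the ato libraries, where they were high, and their calls are description only. With the wild-type libraries alone, 13 of the 17 members passed the filter. Calls rest on edgeR's quasi-likelihood test with Benjamini-Hochberg adjustment over all genes tested, at a threshold of 0.05, with n = 2 libraries per group. The median log2 difference was 1.37 over the 17 tested members and 0.01 over all genes. In bulk RNA, more cells of a type cannot be told apart from more RNA per cell.

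GstD5 showed the clearest switch between genotypes. It stood at 0.409 and 0.782 CPM in the wild-type inputs and at 22.4 and 31.7 CPM in the ato inputs. Its log2 difference was 5.51 ± 0.52 (SE), or 45.4-fold, with an adjusted p of 4.42e-06. The next members along the cluster on either side were less abundant than GstD5 in the ato inputs. GstD6 had 0 counts in both wild-type inputs and 1.26 and 2.12 CPM in the ato inputs, and GstD4 stood between 0.684 and 1.01 CPM in all 4 inputs.

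The ato inputs were at least 13.0-fold above the wild-type inputs for GstD6, from 31 counts against a floor of 3 counts over the group, with an adjusted p of 0.0352. That call was lost without any of 6 libraries, with adjusted p from 0.0661 to 0.237. GstD2, an enzyme that acts on isothiocyanates, rose from 0.491 and 0.879 CPM to 11.1 and 6.26 CPM, a log2 difference of 3.65 ± 0.66 and an adjusted p of 0.00214. GstD9, the neighbour of GstD1, rose from 10.3 and 12.1 CPM to 35.7 and 36.4 CPM, a log2 difference of 1.69 ± 0.35 with an adjusted p of 0.00552. For none of these delta genes did the input groups overlap. The same held for GstD3, GstD10, GstE8 and GstE9, which were not called, so separation of groups of 2 libraries says little alone. The share of all genes with such separation was not counted.

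GstE1 was the most abundant member that changed. Its level was 24.3 and 24.6 CPM in the wild-type inputs and 84.1 and 83.0 CPM in the ato inputs, so replicates lay close together and the groups far apart. The log2 difference was 1.77 ± 0.20, or 3.42-fold, with an adjusted p of 2.52e-05. GstE2, next to it in the cluster, stood at 21.7 and 19.6 CPM against 42.3 and 55.9 CPM in ato, a log2 difference of 1.25 ± 0.25 with an adjusted p of 0.005. Without the second wild-type input the adjusted p of GstE2 was 0.0721, and without the second ato input it was 0.051.

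Further along the cluster, GstE6 stood at 2.21 and 0.977 CPM in the wild-type inputs and at 15.5 and 15.1 CPM in the ato inputs. The log2 difference was 3.24 ± 0.52, with an adjusted p of 0.000741, and without the first wild-type input it was 3.95. GstE7 had 3 counts in the wild-type inputs together, all in the first of them, and 104 in the ato inputs, which gives a ratio of 43.6 with a 95% counting interval of 14.5 to 214.92. Its adjusted p was 0.0131, and it rose to 0.0953 without the second wild-type input and to 0.081 without the first ato input. The fitted log2 difference of 5.38 ± 1.25 was 8.71 without the first wild-type input, which leaves 0 counts in wild type, and 4.53 without the second. GstE6 and GstE7 are adjacent.

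Both dominant members lacked a detectable difference. The log2 difference between ato and wild-type inputs was -0.04 ± 0.17 for GstD1 (adjusted p = 0.931) and -0.05 ± 0.16 for GstS1 (adjusted p = 0.905), and the sign of each turned in some left-out fits. With GstD1 and GstS1 set aside, the summed level of the family was 104 and 99.1 CPM in the wild-type inputs and 284 and 296 CPM in the ato inputs. With them included, the sums were 1870 and 1585 CPM against 2061 and 1681 CPM, which overlap.

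The other 7 tested members were not called. GstE8 had 4.09 and 4.20 CPM in the wild-type inputs against 11.1 and 11.4 CPM in ato, with a log2 difference of 1.44 ± 0.48 and an adjusted p of 0.0848. It was called with limma-voom (0.0423) and with a fit of the compared groups alone (0.0332). GstD10 (1.37), GstE9 (1.19), GstE3 (0.53), GstD3 (0.36), GstE5 (0.05) and GstD4 (0.02) had smaller log2 differences or wide errors. Among the members that were not tested, GstE4 had 8 counts in the ato inputs and 0 in wild type, at least 3.35-fold. GstD7 had 7 against 2 counts, a ratio of 4.40 with a 95% counting interval of 0.838 to 43.4.

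By class, 4 of 8 tested delta genes were higher, with a median log2 difference of 1.53, and 4 of 8 epsilon genes, with a median of 1.34. Over all genes, 4.64% were called higher and the median was 0.01. The class counts include GstD5, GstD6 and GstE7, which the low-count filter kept for the ato libraries. Whether the classes differ was not tested. The called genes were not contiguous, since GstD3 and GstD4 lie between GstD2 and GstD5, and GstE3 to GstE5 lie between GstE2 and GstE6. Of the genes flanking the clusters, only Idgf5 and imd beside the epsilon genes could be tested, and neither was called between genotypes. Idgf5 lay at or below 0.377 CPM in the inputs, with a log2 difference of -0.02 ± 1.38, so its missing call there shows little. Without the second wild-type input, 5 of the 8 calls were left.

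**Figure D2:**
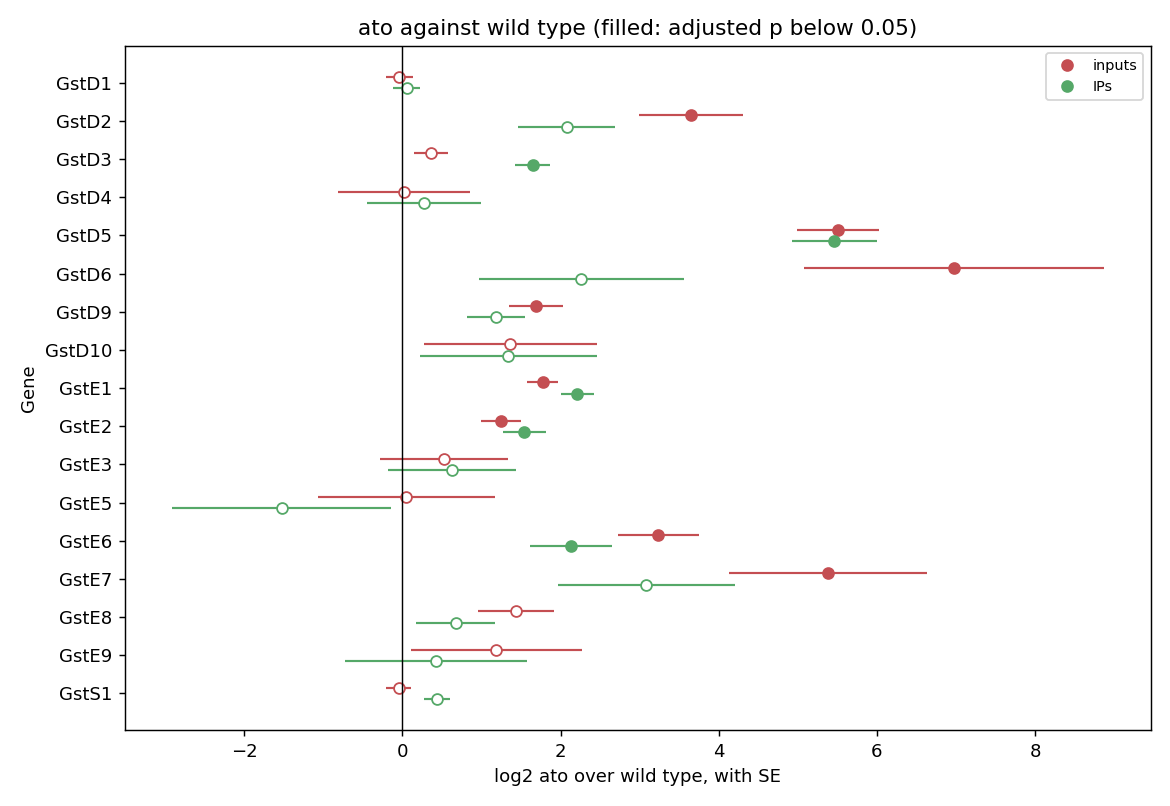
Log2 difference between ato and wild type for each tested Gst gene in the inputs and in the IPs, with bars of 1 SE and filled points for genes past the adjusted p of 0.05; 15 of 17 genes in the inputs and 16 of 17 in the IPs lie on the side of higher levels in ato, and GstD1 and GstS1 lie near 0 in the inputs. The fitted value of GstD6 in the inputs is set against 0 counts and is no measure of size.

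In RNA bound to tagged ribosomes, 5 of the 17 tested Gst genes were higher in ato and 0 were lower, against 2.82% and 1.88% of all genes. The 5 were GstD3, GstD5, GstE1, GstE2 and GstE6. Of these, GstD5 was kept by the low-count filter for the ato libraries, where it was high. The median log2 difference over the tested members was 1.34, against -0.03 over all genes. Inputs and IPs were drawn from homogenates of the same preparations, so the IP comparison is not an independent repeat of the input comparison.

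GstE1 stood at 14.5 and 13.9 CPM in the wild-type IPs and at 63.3 and 68.2 CPM in the ato IPs, a log2 difference of 2.21 ± 0.21, or 4.62-fold, with an adjusted p of 9.88e-06. GstE2 stood at 7.74 and 11.2 CPM against 27.1 and 27.8 CPM, a log2 difference of 1.54 ± 0.27 with an adjusted p of 0.00228. GstE6 stood at 1.80 and 1.48 CPM against 6.98 and 7.57 CPM, a log2 difference of 2.13 ± 0.52 with an adjusted p of 0.0243. All 3 epsilon genes separated the IP groups, as did GstE3, GstE7 and GstE8, which were not called. Such separation says little alone, and its share over all genes was not counted. The call of GstE6 was lost without the first wild-type IP (log2 difference 2.28), the second wild-type IP (1.99) or the second ato IP (2.10).

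GstD5 was again near the floor in wild type, at 0.212 and 1.21 CPM in the IPs, and stood at 22.7 and 37.2 CPM in the ato IPs. Its log2 difference was 5.46 ± 0.54, or 44.0-fold, with an adjusted p of 1.3e-05, and it was 4.61 without the first wild-type IP and 7.04 without the second. As in the inputs, this call is description only, because the low-count filter kept the gene for the ato libraries. GstD3 stood at 15.7 and 16.3 CPM in the wild-type IPs and at 47.8 and 52.6 CPM in the ato IPs, a log2 difference of 1.65 ± 0.22, or 3.14-fold, with an adjusted p of 0.000196. In the inputs the same gene had 33.7 and 30.7 CPM in wild type and 43.1 and 39.5 CPM in ato, and its difference did not pass the threshold (adjusted p = 0.346).

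Of the members called in the inputs, GstD2, GstD9, GstE7 and GstD6 did not pass in the IPs. GstD2 had 1.48 and 2.29 CPM against 8.58 and 7.32 CPM, a log2 difference of 2.08 ± 0.61 with an adjusted p of 0.0629, which was 0.0443 and 0.0467 without the first or second wild-type input and 0.0189 with DESeq2. GstD9 had 3.82 and 9.58 CPM against 17.3 and 12.7 CPM (1.18 ± 0.37, adjusted p = 0.0792). Its log2 difference was 1.96 without the second wild-type IP, with an adjusted p of 0.00495, and 0.64 without the first, and with DESeq2 its adjusted p was 0.0461. The values of both were higher in each ato IP than in each wild-type IP, which says little alone in groups this small. A missed threshold does not show that the genotypes were alike.

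GstE7 stood at 0.742 and 0 CPM in the wild-type IPs against 4.41 and 2.48 CPM in ato, with a log2 difference of 3.08 ± 1.12 and an adjusted p of 0.14, or 0.0448 with DESeq2. The difference was 7.97 without the first wild-type IP and 2.18 without the second. GstD6 stood at 0.106 and 0.54 CPM against 2.08 and 0.992 CPM, with an adjusted p of 0.404. GstS1 had 203 and 230.4 CPM against 298 and 286 CPM, a log2 difference of 0.43 ± 0.16 with an adjusted p of 0.158. GstD1 had 432 and 465 CPM against 493 and 437 CPM, which overlap. GstE8 had 3.07 and 3.64 CPM against 6.86 and 3.85 CPM, with an adjusted p of 0.55. By class, 2 of 8 delta genes and 3 of 8 epsilon genes were called higher, with median log2 differences of 1.49 and 1.11. Over all genes, 2.82% were called higher and the median was -0.03. The delta count includes GstD5, which the low-count filter kept for the ato libraries.

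**Figure D3:**
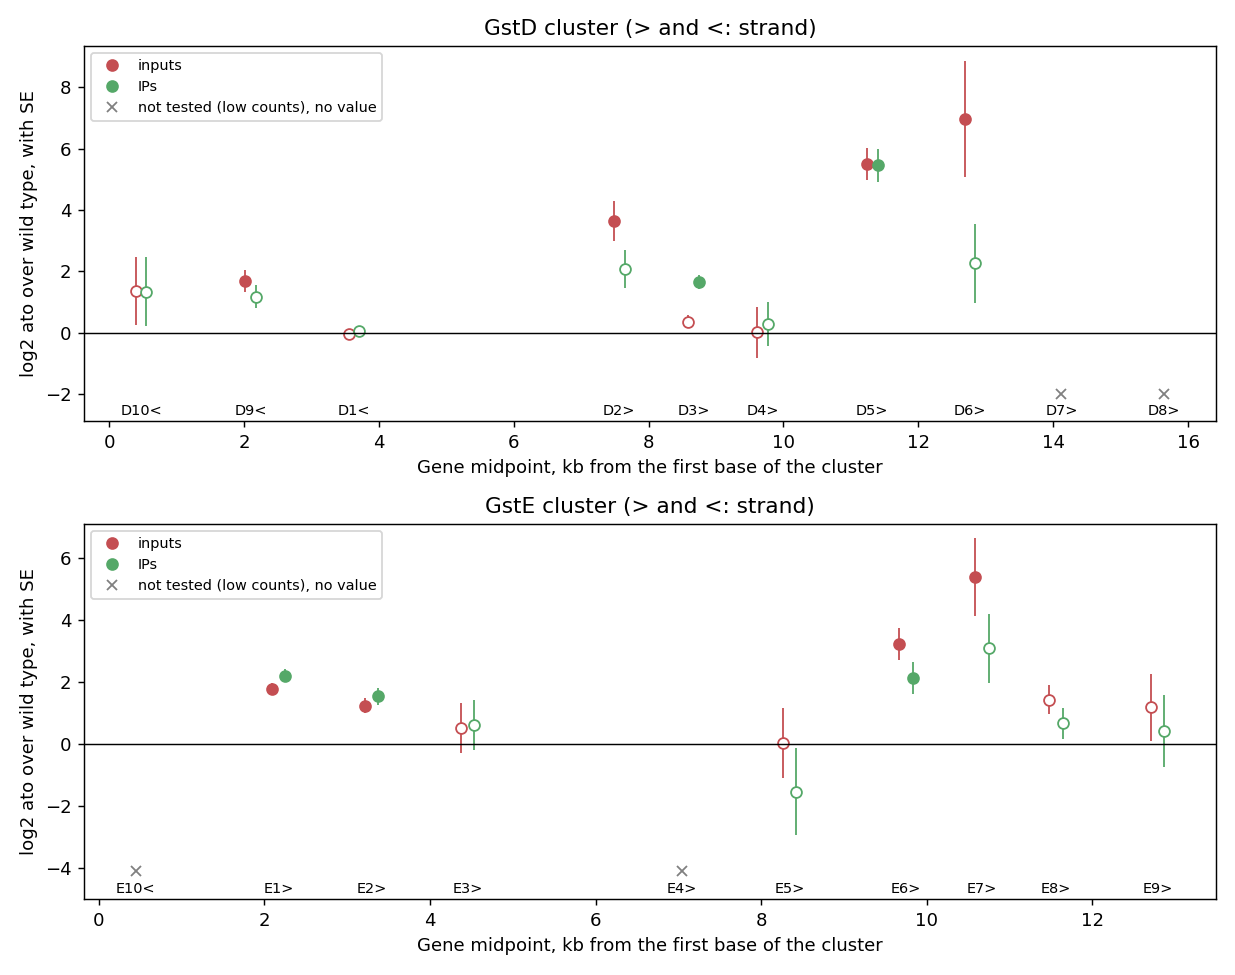
Log2 difference between ato and wild type along the delta and epsilon clusters, with genes in their order on the chromosome arm and separate points for inputs and IPs (bars of 1 SE, filled where called); crosses at the bottom mark genes without a value, and in both clusters genes with large differences stand beside genes near 0.

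Other cell types moved with genotype as well. The 18 midgut markers, most of them digestive proteases, summed to 0.981 and 0.879 CPM in the wild-type inputs, where 13 were at 0, and to 64.9 and 223 CPM in the ato inputs, where 3 were at 0. In the IPs the same sums were 7.32 and 16.7 CPM against 31.4 and 130 CPM. Of the 8 midgut markers tested, 6 were higher in the ato inputs and 4 in the ato IPs, and Jon99Fi was at 0 in all libraries. The shares of all genes called higher were 4.64% in the inputs and 2.82% in the IPs. The 6 had wild-type input means of at most 0.261 CPM, so the low-count filter kept them for their levels in other libraries.

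Muscle markers summed to 106 and 111 CPM in the wild-type inputs and to 531 and 292 CPM in the ato inputs, with 8 of 9 called higher. Higher calls also included 5 of 11 glial markers, with sums of 990 and 890 CPM against 1526 and 1760 CPM. They further included 4 of 9 hemocyte markers (273 and 189 CPM against 361 and 385 CPM in sum) and 3 of 6 fat body markers (88.2 and 18.3 CPM against 182 and 101 CPM in sum). One glial marker, loco, was lower. Of the Malpighian tubule markers, 1 of 5 tested was higher. Eye disc markers fell in 3 of 6 cases, with sums of 127 and 114 CPM in the wild-type inputs and 19.7 and 25.1 CPM in the ato inputs. Salivary gland markers fell in 4 of 6 cases, from sums of 51.7 and 20.4 CPM to 0.252 and 1.62 CPM, and 0 of 7 neuronal and 0 of 5 tracheal markers were called in either direction. Of 8 factors named for T4 and T5 neurons, 3 were lower in the ato inputs (grn, Sox102F and dac) and 2 in the ato IPs (grn, 2.94-fold, and dac, 2.15-fold), and 0 were higher in either. In the IPs 7 of 9 muscle, 4 of 11 glial, 3 of 9 hemocyte and 0 of 6 fat body markers were higher. The muscle sums there were 718 and 562 CPM in wild type and 1861 and 927 CPM in ato. Of all genes, 4.64% were called higher and 2.34% lower in the ato inputs, and 2.82% and 1.88% in the ato IPs. The part of any of these tissues in the Gst differences was not tested.

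The IP was next set against the input of the same genotype. In wild type, 1 of the 17 tested members was higher in the IP and 5 were lower, against 17.3% and 18.4% of all genes. The median log2 difference of the tested members was -0.30. Of the 8 T4 and T5 factors, 3 (bi, dac and grn) were higher in the wild-type IPs and 4 in the ato IPs, with median log2 differences of 0.52 and 0.48. All 9 muscle markers were higher in the IPs of both genotypes, with medians of 2.37 in wild type and 1.33 in ato. Of 8 tested midgut markers, 3 were higher in the wild-type IPs and 1 in the ato IPs. Of 7 neuronal markers, 5 were higher and 1 lower in the wild-type IPs, and 3 and 1 in the ato IPs. Of 11 glial markers, 3 were higher and 2 lower in wild type, and 3 and 3 in ato. Of 5 tracheal markers, 2 were higher in each genotype. Higher calls in wild type and ato covered 2 and 0 of 9 hemocyte markers. They covered 1 and 3 of 6 eye disc and 0 and 2 of 6 salivary gland markers. Fat body and Malpighian tubule markers had 0 calls. The shares of all genes called higher in the IP were 17.3% in wild type and 11.9% in ato. The part of these tissues in the IP values of the Gst genes was not tested.

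GstD1 was lower in the IP by the widest margin among the called members. It fell by 1.57 ± 0.18 on the log2 scale in wild type, or 2.96-fold, from 1461 and 1200.1 CPM in the inputs to 432 and 465 CPM in the IPs, with an adjusted p of 1.07e-05. GstE2 fell by 1.13 ± 0.27 (adjusted p = 0.00364), GstD3 by 1.01 ± 0.22 (0.00224), GstE1 by 0.78 ± 0.21 (0.00799) and GstS1 by 0.45 ± 0.16 (0.0416). With the exon length correction, GstE1 was not called (-0.51, adjusted p = 0.0615) and 4 lower calls were left, with GstD1 at -1.30. The call of GstS1 was lost without any of the 4 wild-type libraries, with adjusted p from 0.0505 to 0.223, and that of GstE1 without either wild-type input (0.0515 and 0.0519). Without either of those inputs, 3 lower calls were left.

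GstD4 was the member higher in the IP. It stood at 0.981 and 0.684 CPM in the wild-type inputs and at 3.07 and 5.94 CPM in the wild-type IPs, a log2 difference of 2.41 ± 0.78 with an adjusted p of 0.0249. In ato it stood at 1.01 and 0.707 CPM in the inputs and at 5.15 and 5.71 CPM in the IPs, a log2 difference of 2.66 ± 0.80 with an adjusted p of 0.0201. The groups did not overlap in either genotype, but the counts were small. No input held more than 12 counts of GstD4, so the low-count filter kept it for the IPs, where it was high. Its calls are description only. The wild-type call was lost without either wild-type input (0.0838 and 0.133) or the second wild-type IP (0.174), and the ato call without any of the 4 ato libraries (0.0617 to 0.102).

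In ato, 1 tested member was higher in the IP and 3 were lower, against 11.9% and 16.3% of all genes, with a median log2 difference of -0.34. GstD1 fell by 1.47 ± 0.18 on the log2 scale, or 2.78-fold, from 1462 and 1127 CPM to 493 and 437 CPM, with an adjusted p of 3e-05. GstD9 fell by 1.27 ± 0.34 (adjusted p = 0.011), from 35.7 and 36.4 CPM to 17.3 and 12.7 CPM. GstE2 fell by 0.84 ± 0.25 (0.0191), from 42.3 and 55.9 CPM to 27.1 and 27.8 CPM. With the exon length correction, GstD9 (-0.78, adjusted p = 0.0712) and GstE2 (-0.39, 0.236) were not called. GstD1 stayed called there, at -1.11. The call of GstD9 was lost without the second ato IP (0.085), and that of GstE2 without the second ato input (0.146), the first ato IP (0.0926) or the second ato IP (0.0737).

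For GstD3, GstE1 and GstS1 the ato libraries gave no call between IP and input, with log2 differences of 0.28, -0.34 and 0.03. GstD5 stood close to its input level in ato, at 22.7 and 37.2 CPM against 22.4 and 31.7 CPM. By class, 1 of 8 delta genes was higher and 2 lower in each genotype. Of 8 epsilon genes 2 were lower in wild type and 1 in ato, and 0 were higher. The shares of all genes were 17.3% higher and 18.4% lower in wild type, and 11.9% and 16.3% in ato. The higher delta gene was GstD4, which the low-count filter kept for the IPs.

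**Figure D4:**
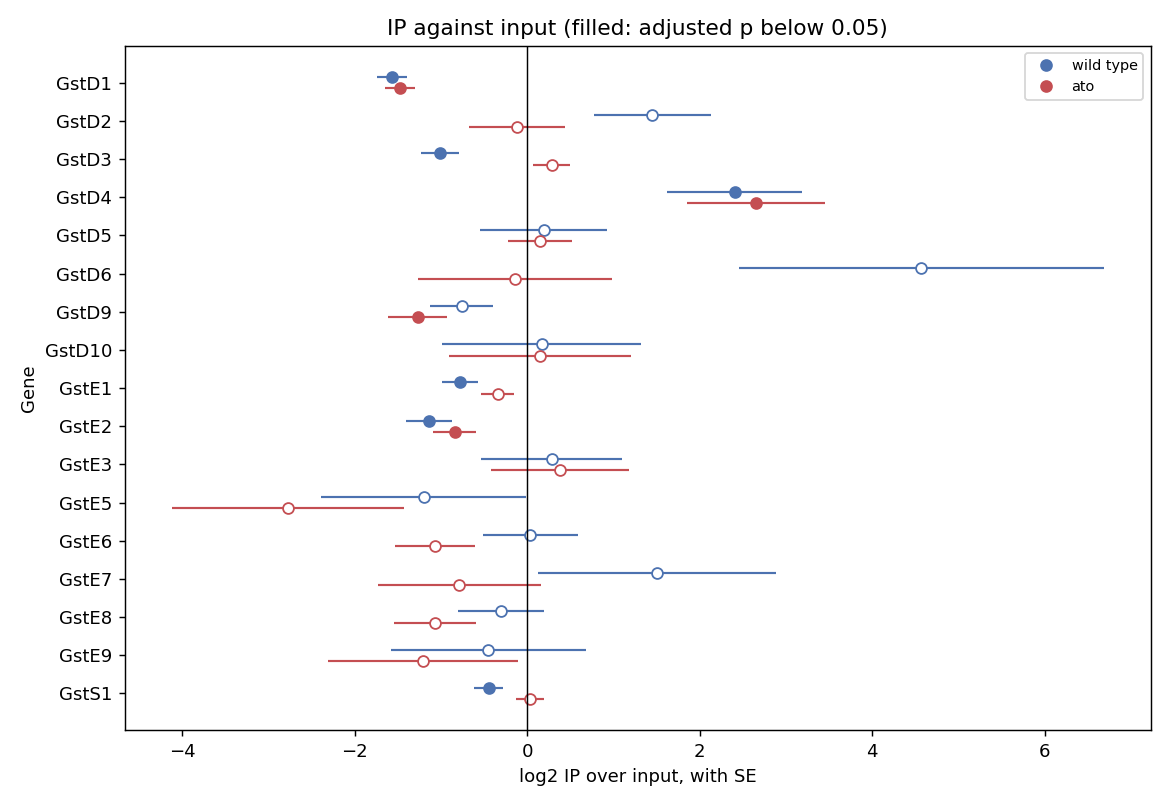
Log2 difference between IP and input for each tested Gst gene in wild type and in ato, with bars of 1 SE and filled points for genes past the adjusted p of 0.05; GstD1 lies well below 0 and GstD4 above 0 in both genotypes. GstD4 passed the low-count filter through its IP counts, so its points are description only.

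Whether the ratio of IP to input differed between genotypes was tested as an interaction term. edgeR called 0 of the 17 members and 0% of all genes, while 1 member and 436 genes (4.26%) had an unadjusted p below 0.05. DESeq2's Wald test called 0 members and 1 gene in all, and limma-voom called 0 members and 0 genes, with 2 members below an unadjusted p of 0.05 in each. The 1 member was GstD3, with a log2 difference of ratios of 1.29 ± 0.31, an unadjusted p of 0.000585 and an adjusted p of 0.991. Its call in the ato and wild-type IPs, beside none in the inputs, is thus not shown to be a difference between the fractions.

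Further genes of the family are deposited under other names, and 16 of these 17 could be tested. Of all genes, 4.64% were called higher and 2.34% lower in the ato inputs, and 2.82% and 1.88% in the ato IPs. Between genotypes 1 of the 16 was higher in each fraction, and 0 were lower. This was Mgstl, a membrane-bound microsomal enzyme of separate descent from the cytosolic classes. Its level was 36.2 and 27.7 CPM in the wild-type inputs, 125 and 70.7 in the ato inputs, 32.1 and 37.0 in the wild-type IPs and 87.2 and 72.6 in the ato IPs. The log2 difference was 1.61 ± 0.25 in the inputs (adjusted p = 0.000604) and 1.21 ± 0.25 in the IPs (adjusted p = 0.00846, and 0.0505 without the first ato IP).

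Against the input, 7 of these 16 genes were lower in the wild-type IPs and 7 in the ato IPs, and 0 were higher. Over all genes, 18.4% were lower and 17.3% higher in wild type, and 16.3% and 11.9% in ato. The lower genes included CG6776 (GstO3), which fell by 1.64 on the log2 scale in both genotypes, and CG16936 (GstE12), which fell by 1.17 in wild type and by 1.31 in ato. The genotype medians of the 16 were 0.13 on the log2 scale in both inputs and IPs.

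Other parts of glutathione and detoxification chemistry gave mixed counts. The shares of all genes were 4.64% higher and 2.34% lower in the ato inputs, and 2.82% and 1.88% in the ato IPs. Of 12 tested genes for the synthesis and use of glutathione, 2 were higher in the ato inputs and 0 in the IPs, and 0 were lower. The 2 were CG4829, a gamma-glutamyl transferase gene that rose by 2.06 ± 0.33 on the log2 scale (adjusted p = 0.000778), and Trx-2, a thioredoxin gene that rose by 0.90 ± 0.22 (0.0176, and 0.212 without the first wild-type input or 0.105 without the first ato input). Of 9 tested antioxidant enzyme genes, 0 were higher and 1 was lower in the ato inputs. This was Cat, which encodes catalase and fell by 0.60 ± 0.16 (0.0314), a call lost without either wild-type input (0.19 and 0.237) or the second ato input (0.186). The regulators cnc, Keap1 and maf-S were not called between genotypes in either fraction.

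Among 50 tested cytochrome P450 genes, which carry out oxidations that can precede conjugation to glutathione, 8 were higher in the ato inputs and 4 in the ato IPs, and 0 were lower. The shares of all genes called higher were 4.64% in the inputs and 2.82% in the IPs. Of 13 tested UDP-glycosyltransferase genes, 1 was higher in the inputs (Ugt86Di, with an adjusted p of 0.0155, which was 0.221 without the second wild-type input and 0.123 without the first ato input) and 0 in the IPs. Of 10 tested heat shock genes, 4 were higher and 1 lower in each fraction. Hsp70Ba, an inducible chaperone gene, had 0 counts in both wild-type inputs and 16.3 and 15.4 CPM in the ato inputs. The link of these genes to the Gst differences was not tested.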

How the data were processed

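The authors deposited unnormalized counts for every gene in each sequencing run. TopHat2 2.0.12 and featureCounts 1.4.4 are the tools listed in the submitters' processing notes. Exons of the dm3 build were the counted features, reads needed a mapping quality of at least 5, and no option for strand or multiple mapping was set, per the file headers. The 4 runs of each library were summed, which gave 8 libraries. Here edgeR 4.0.16 in R 4.3.3 was used with the low-count filter filterByExpr, library scaling by TMM and a quasi-likelihood test in a single fit of all 4 groups, with Benjamini-Hochberg adjustment over 10224 genes and a threshold of 0.05. Scripts were tested on simulated data. Log2 differences carry their standard error (SE). Counting intervals and floors of 3 counts cover counting error only. An exact permutation test was not used, because the groups are too small for it to pass the threshold. Alternatives were DESeq2 1.42.0 size factors and its Wald test, limma-voom (limma 3.58.1), 2 other low-count filters, the compared groups alone, an exon length correction, 1 run per library, a replicate block and leaving out each library.

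The members, lists and markers were chosen with earlier results of these data known. Named with full values are members called in any comparison and the 5 most abundant per length. From the other lists, the called genes with the 2 largest changes in each direction could be named, and Hsp70Ba and loco are covered by that. All 21 symbols are current names.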

Additional observations from a re-analysis of the deposited data

How the results depend on the processing

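With 2 libraries per group, 1 library can decide a call. Over the fits that left out 1 library each, the number of Gst genes called higher in ato ranged from 5 to 8 in the inputs and from 4 to 6 in the IPs. Against the input, higher calls ranged from 0 to 1 in both genotypes, and lower calls from 3 to 5 in wild type and from 1 to 3 in ato. In the ato IPs, 8 members were higher without a low-count filter and 8 with DESeq2's Wald test. Without a filter 21 members were tested, against 17 in the main fit. From 1 run per library 12 were tested, at lower depth, and 0 members were higher and 1 lower in the wild-type IPs against their inputs. With the length correction, 2 were higher and 1 lower in the ato IPs against their inputs. The causes were not tested. Single genes were followed across fits only where their unadjusted p was below 0.05, and for GstD1 and GstS1 throughout. Among these, 9 values turned sign, all of GstD1 or GstS1 and all near 0. Other uncalled members were not followed. The left-out log2 differences ranged from -0.12 to 0.22 for GstS1 between ato IP and input and from -0.24 to 0.0874 for GstS1 between genotypes in the inputs. For GstD1 they ranged from -0.0159 to 0.17 between genotypes in the IPs, from -0.28 to 0.13 in the inputs (0.0014 from 1 run) and from -0.0851 to 0.36 for the difference of ratios. Deviations of same-numbered input and IP libraries correlated at 0.0963 in wild type and 0.165 in ato. Those of same-numbered wild-type and ato libraries correlated at 0.06 in inputs and in IPs. The labels do not say whether a shared number marks 1 homogenate, so the main fit did not use pairs. The low correlations do not show that inputs and IPs were unpaired. With a replicate block the counts were 8 higher in the inputs, 5 higher in the IPs, 1 higher and 6 lower in wild type, 1 higher and 3 lower in ato and 0 for the difference of ratios.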
